A study of Mus musculus with 12 samples.

Results

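Alternatively activated macrophages are macrophages that have taken on the state first described after exposure to the cytokines IL-4 and IL-13. Both cytokines signal through the receptor chain Il4ra and the transcription factor Stat6, and the cells then make arginase, mannose and scavenger receptors and secreted proteins of the chitinase-like and resistin-like families. In tumours, cells with such genes are linked to tissue repair, removal of debris and damped T cell responses, and several of the same genes also mark macrophages that reside in normal tissue.

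The genes examined here are 10 such genes, chosen by name: Arg1, Mrc1, Cd163, Chil3, Retnla, Folr2, Lyve1, Stab1, Il10 and Msr1. All 10 were found by symbol among the 41009 rows of the authors' expression table. Levels are in FPKM, fragments scaled by transcript length and by library size, and were compared on the log2(FPKM + 1) scale, which understates the change of low genes. Of the 10 genes, 7 reached 1 FPKM in 3 or more libraries and were tested together with all other genes that passed, 14306 in all. Cd163, Retnla and Folr2 did not pass, and their values are described without a call.

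The study measured RNA from 12 bulk tumour libraries, 3 in each of 4 groups. The tumours grew from mCherry-4T1 cells, a mouse mammary carcinoma line that carries a red fluorescent label, implanted into mammary fat pads of BALB/c females aged 4 to 5 weeks, a strain with an intact immune system. Treatment by the intraperitoneal route began 7 days after the cells were injected. The doses were 5 mg/kg for Ctrl-Fc, 3.5 mg/kg for VHH-OD-Fc, 2.6 mg/kg for VHH-PD-1-Fc and 4.3 mg/kg for the construct with both arms, VHH-OD-PD-1-Fc. VHH stands for a nanobody, the single antigen-binding domain of camelid antibodies, Fc for the antibody tail, and PD-1 for a receptor that restrains T cells. OD is not spelled out in the labels; nanobodies to digoxin-like substances made by the body are the subject of the series title. The design text of the series differs from these labels, in that it describes LLC tumours and digoxin, and the sample labels were followed here. By the labels, all animals bore the same tumour, and the control group also received an Fc protein. Whether each library came from its own animal is not stated in the labels, so the p-values measure only how far these libraries vary, which may be technical.

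Depth, estimated from the steps between low values, was 43800000 to 61200000 steps per library. The 6 libraries with the PD-1 arm differed from the 6 without it in summed FPKM, 388142 to 401179 against 327792 to 345596. The number of genes above 0 did not split them in this way. Replicate 2 of VHH-PD-1-Fc had 25553, within the 24924 to 26203 of the libraries without the arm, and the others with the arm had 30257 to 31676. No label gives a batch, and the PD-1 arm and any difference in handling between these sets of libraries cannot be told apart. Only VHH-OD-Fc against Ctrl-Fc and VHH-OD-PD-1-Fc against VHH-PD-1-Fc compare libraries within a set. Replicate 1 of Ctrl-Fc, replicate 2 of VHH-OD-Fc and replicate 2 of VHH-PD-1-Fc stood apart from their groups. Among libraries of VHH-OD-PD-1-Fc, r over genes was between 0.99 and 0.991, and in the other groups between 0.953 and 0.984. They still differed by more than counting noise, which libraries made separately from 1 tumour can also do. This does not show whether they came from separate animals, and they were kept as 3 samples. General macrophage markers were present: 12 of 13 passed the filter, and Cd68 had a mean of 87.1 to 108 FPKM in each group. Markers of other cell types passed too, among them 10 of 10 of neutrophils and 7 of 7 of fibroblasts. Which cells made the RNA of the 10 genes is not shown by this. In bulk tumours, fewer cells of a type and less RNA per cell cannot be told apart.

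Arg1 was the most abundant of the 10 genes and fell in tumours given VHH-OD-PD-1-Fc, to 31.6% of the Ctrl-Fc mean. Msr1 was called lower with VHH-PD-1-Fc against Ctrl-Fc, a call that most other settings of the test did not give. None of the 7 tested genes was called in either comparison that added the OD arm within a set. Few genes of any kind were called there: 0.0% of all tested with VHH-OD-Fc against Ctrl-Fc and 0.839% with VHH-OD-PD-1-Fc against VHH-PD-1-Fc. Lyve1 was lower in both groups with the PD-1 arm than with VHH-OD-Fc, and Il10 was lower with VHH-PD-1-Fc than with VHH-OD-Fc. These calls of Lyve1 and Il10 rested on single libraries: without replicate 2 of VHH-OD-Fc both Lyve1 differences went from -0.91 to -0.54, and without replicate 2 of VHH-PD-1-Fc the Il10 difference went from -1.16 to -0.70, none of them called. Mrc1, Stab1 and Chil3 were not called in any of the 6 comparisons between pairs of groups, and none of the 7 was called higher in any.

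**Figure D1:**
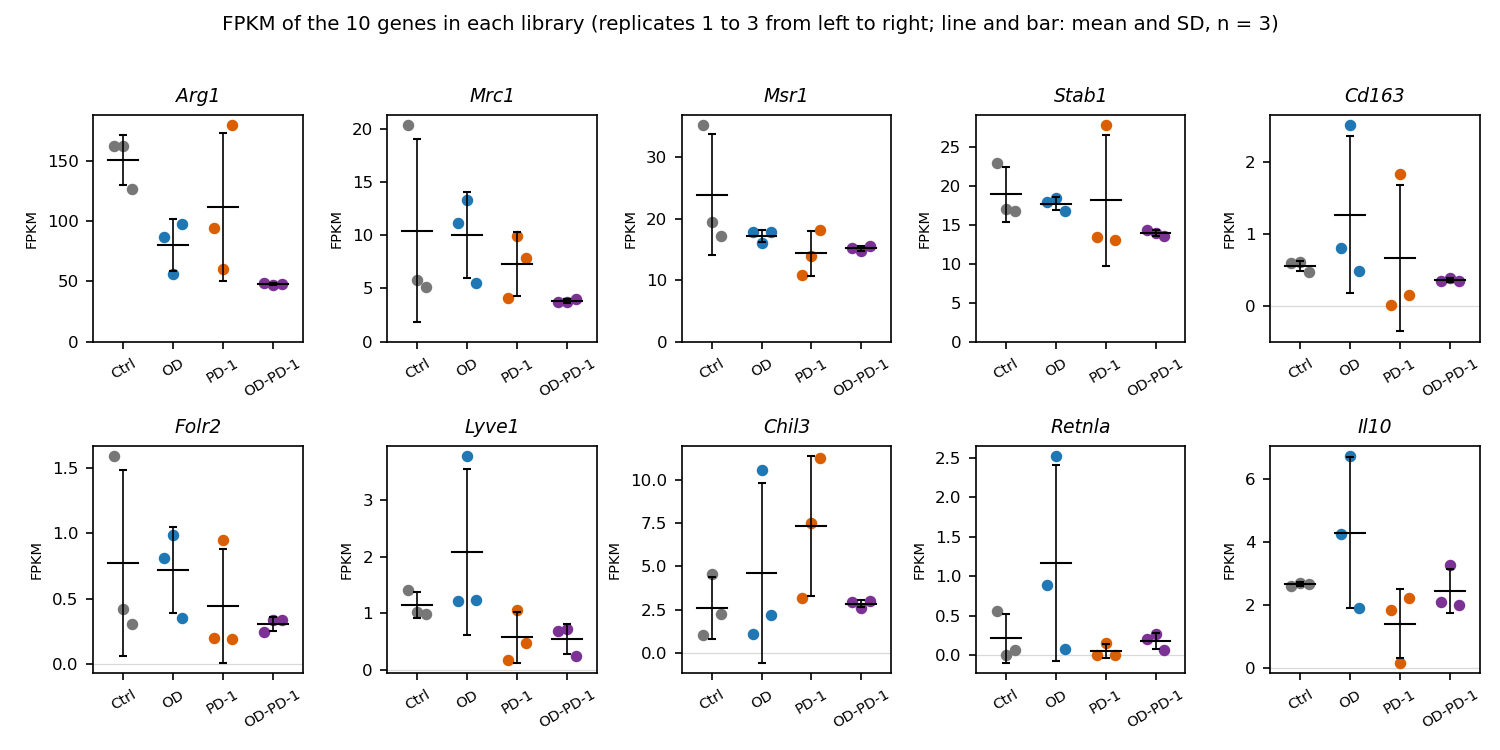
FPKM of the 10 genes (y axis, linear, 1 panel per gene) in each of 12 libraries, by treatment group (x axis; group names without VHH and Fc). Points are libraries, lines are group means and bars are SD (n = 3); Arg1 in the VHH-OD-PD-1-Fc libraries lies between 47.0 and 49.0 FPKM, under each other library.

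Arginase 1, the enzyme that turns arginine into ornithine and urea, is made by alternatively activated macrophages and by suppressive myeloid cells of tumours. Its gene, Arg1, had 163, 163 and 127 FPKM in the Ctrl-Fc libraries, and its mean over all 12 libraries stood at percentile 98.8 of the table. The VHH-OD-Fc libraries had 87.2, 56.5 and 97.6 FPKM. All 3 lay under every Ctrl-Fc library, and their mean was 53.2% of the Ctrl-Fc mean. With VHH-PD-1-Fc, Arg1 reached 94.4, 60.5 and 180 FPKM, so that this group held the highest library of all 12 and overlapped both Ctrl-Fc and VHH-OD-Fc. The VHH-OD-PD-1-Fc libraries had 49.0, 47.0 and 47.5 FPKM. These were the 3 lowest libraries of the study, and they overlapped no other group.

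Between VHH-OD-PD-1-Fc and Ctrl-Fc, the means of Arg1 were 47.8 ± 1.04 and 151 ± 20.8 FPKM (SD, n = 3). The difference was -1.63 on the log2 scale (SE 0.32, 95% interval -2.34 to -0.92, adjusted p = 0.0026 by limma with Benjamini-Hochberg adjustment over all genes tested). Arg1 was the only called gene of the 7 in this comparison, in which 27.1% of all genes tested were called lower and 42.2% in either direction. The call was made in 23 of 24 other settings of the test, and the difference over all 24 ranged from -1.87 to -1.46. It was lost (adjusted p = 0.072) where the 3 VHH-OD-PD-1-Fc libraries, which resemble each other closely, were counted as 1 sample.

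Against Ctrl-Fc, VHH-OD-Fc gave a difference in Arg1 of -0.93 (SE 0.32, 95% interval -1.64 to -0.22), which was not called (unadjusted p = 0.015, adjusted p = 1.0, limma). In that comparison limma called 0.0% of all genes tested and 0 of the 7. The smallest adjusted p of any gene was 0.108, and 449 of 14306 genes had an unadjusted p under 0.05. Arg1 was the only one of the 7 whose libraries did not overlap between VHH-OD-Fc and Ctrl-Fc. Genes that lay apart and lower in this way made up 6.7% of those tested.

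Where the OD arm was added to the PD-1 arm, Arg1 had a mean of 47.8 FPKM with VHH-OD-PD-1-Fc against 112 ± 61.5 FPKM (SD, n = 3) with VHH-PD-1-Fc. The difference of -1.06 (SE 0.32, 95% interval -1.77 to -0.35) was not called (adjusted p = 0.148, limma), in a comparison in which 0.839% of all genes were called and 0 of the 7. It rested in part on the spread within VHH-PD-1-Fc: without replicate 2 of that group, the difference was -1.43 and was called (adjusted p = 0.036), and without replicate 3 it was -0.65 and was not (adjusted p = 0.15). Against VHH-OD-Fc, VHH-OD-PD-1-Fc gave -0.70 (adjusted p = 0.105, limma), and without replicate 2 or 3 of VHH-PD-1-Fc that difference was called (adjusted p of 0.039 and 0.024). VHH-PD-1-Fc alone against Ctrl-Fc gave -0.57 (SE 0.32, adjusted p = 0.166), and without its replicate 3 this became -0.98 with an adjusted p of 0.0083. Subtracting the log2 effects of both single-arm constructs from that of the construct with both arms left a departure from additivity of -0.13 for Arg1 (SE 0.46, 95% interval -1.14 to 0.87, adjusted p = 0.948, limma), and 0 of the 7 genes were called for it beside 0.112% of all genes. That interval leaves room for a departure about as large as the effect of VHH-OD-Fc itself, and the doses differ between groups.

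Averaged over both sets of libraries, a contrast chosen after the data were seen, the OD arm went with a difference in Arg1 of -1.0 on the log2 scale (SE 0.23, 95% interval -1.50 to -0.50). The unadjusted p was 0.0011 and the adjusted p 0.322 (limma, Benjamini-Hochberg adjustment over all genes). None of the 7 genes was called in this contrast, in which 0.0419% of all genes were. Il10 differed by 0.53 (SE 0.28, adjusted p = 0.718), with the opposite sign to Arg1, and Mrc1 by -0.31 (SE 0.32, adjusted p = 0.902).

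**Figure D2:**
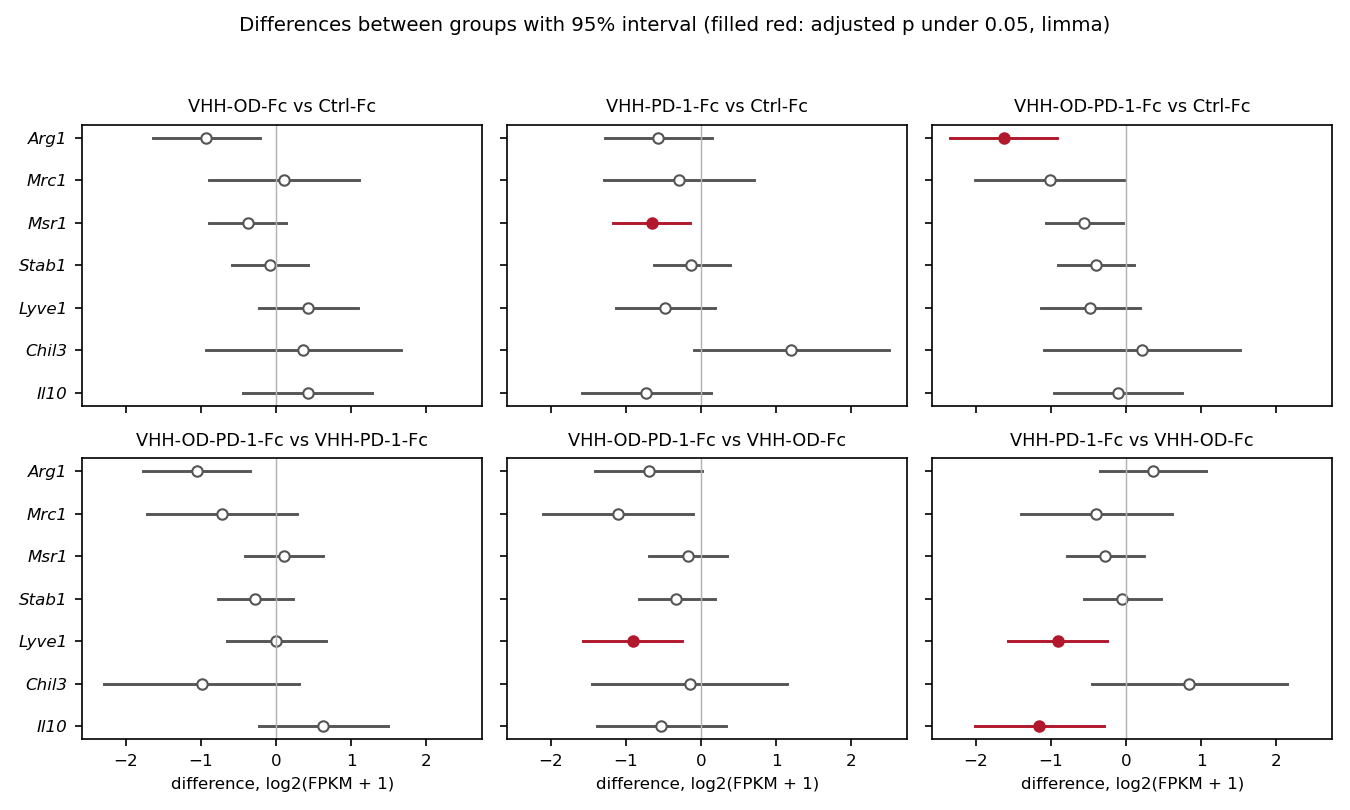
Differences between groups in log2(FPKM + 1) (x axis) for the 7 tested genes (y axis), 1 panel per comparison, with 95% intervals from limma. Filled red points have an adjusted p under 0.05: Msr1 with VHH-PD-1-Fc and Arg1 with VHH-OD-PD-1-Fc against Ctrl-Fc, and Lyve1 (both groups with the PD-1 arm) and Il10 (VHH-PD-1-Fc) against VHH-OD-Fc.

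Measured against the macrophage markers of the same library, Arg1 again had its lowest mean with VHH-OD-PD-1-Fc. The 13 general macrophage markers include Cd163l1, read under the symbol Scart1, which did not pass the filter. Scart1 had group means of 0.0133 to 0.404 FPKM and was at 0 in replicates 2 and 3 of VHH-PD-1-Fc. The log2 value of Arg1 minus the mean of these 13 markers had a mean of 2.25 ± 0.35 in Ctrl-Fc, 1.58 ± 0.59 in VHH-OD-Fc, 1.78 ± 1.13 in VHH-PD-1-Fc and 0.81 ± 0.04 in VHH-OD-PD-1-Fc (SD, n = 3). The lowest Ctrl-Fc library, at 1.9, was above the highest VHH-OD-PD-1-Fc library, at 0.86. On this measure replicate 2 of VHH-PD-1-Fc, at 0.52, was the lowest of the study, under the VHH-OD-PD-1-Fc libraries at 0.78 to 0.86. The summed FPKM of those markers was 948 to 1779 in Ctrl-Fc, 827 to 1208 in VHH-OD-Fc, 991 to 2628 in VHH-PD-1-Fc and 1066 to 1094 in VHH-OD-PD-1-Fc. Of the 12 tested, limma called 1 higher (Tyrobp, 0.62, called in 9 of 24 other settings) and 2 lower (Adgre1, -1.12, and Mpeg1, -1.14, in 23 of 24 each) with VHH-OD-PD-1-Fc against Ctrl-Fc, while Cd68 differed by 0.08 (adjusted p = 0.83). Neutrophil markers had a higher sum, 2024 to 2085 FPKM with VHH-OD-PD-1-Fc against 851 to 1177 FPKM in Ctrl-Fc. Most of it came from S100a8 and S100a9, with means of 498 and 1220 FPKM against 186 and 538. The list did not rise as a whole, and its median difference was 0.08. Retnlg, Ly6g and Ngp also had higher means than in Ctrl-Fc, and Mmp9, Ltf, Camp, Csf3r and Cxcr2 had lower ones. Of 10 such markers, 2 were called higher, S100a8 at 1.43 (12 of 24 other settings) and Retnlg at 2.18 (23 of 24), and 0 lower. With TPM 1 was higher and 2 lower, and with median-of-ratios scaling 4 were higher and 0 lower. Monocyte markers, 1 of 7 called lower, summed to 283 to 287 FPKM with VHH-OD-PD-1-Fc and 398 to 487 in Ctrl-Fc. Most of these sums was the single gene Fn1, at 240 to 244 and 337 to 441 FPKM. The median difference of the 7 was -0.68. Of all genes tested, 27.1% were called lower and 15.1% higher with VHH-OD-PD-1-Fc against Ctrl-Fc. No marker of these lists was at 0 in either group. The part of these cell types in the Arg1 result was not tested.

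Arginine is also the substrate of the inducible nitric oxide synthase Nos2, the usual marker of classically activated macrophages, and of the mitochondrial arginase Arg2. Nos2 had 41.4, 46.7 and 57.9 FPKM in Ctrl-Fc, 25.9, 46.4 and 58.8 in VHH-OD-Fc, 30.8, 1.66 and 10.2 with VHH-PD-1-Fc, and 22.1, 24.4 and 23.7 in VHH-OD-PD-1-Fc. Both groups with the PD-1 arm lay under every Ctrl-Fc library. Nos2 fell with VHH-PD-1-Fc by limma (difference -2.32, SE 0.67, adjusted p = 0.015) and was not called with VHH-OD-PD-1-Fc (-1.01, SE 0.67, adjusted p = 0.24). Arg2 was lower than in Ctrl-Fc with VHH-PD-1-Fc (-0.84, adjusted p = 0.0051) and with VHH-OD-PD-1-Fc (-0.66, adjusted p = 0.018), in 23 and 17 of 24 other settings. The Arg2 call with VHH-OD-PD-1-Fc was lost with median-of-ratios scaling (-0.51, adjusted p = 0.053) and without replicate 1 of Ctrl-Fc (adjusted p = 0.061) or replicate 1 or 2 of VHH-OD-PD-1-Fc (0.058 and 0.059). For both genes the VHH-OD-Fc libraries overlapped those of Ctrl-Fc (differences of -0.21 for Nos2 and -0.02 for Arg2).

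Arg1 apart, the list of arginine genes had 10 members, all tested. With VHH-PD-1-Fc against Ctrl-Fc, 7 were called lower and 1 higher, with a median difference of -0.58 beside -0.19 over all genes. Of all genes tested, 32.3% were called lower there. With VHH-OD-PD-1-Fc, 4 were called lower and 1 higher, beside 27.1% of all genes called lower, with a median of -0.32 beside -0.14. The split depended on scaling in that comparison, with 6 lower and 0 higher on TPM and 2 lower and 3 higher on median-of-ratios scaling. With VHH-PD-1-Fc it was 8 and 0 on TPM and 5 and 1 on median-of-ratios scaling. Ass1, which rebuilds arginine from citrulline, differed from Ctrl-Fc by -1.07 with VHH-PD-1-Fc and -0.91 with VHH-OD-PD-1-Fc and was called in all 24 other settings of both. Slc7a2, an arginine transporter of macrophages, differed by -0.73 and -0.99, and the ornithine decarboxylase Odc1 by -0.62 and, uncalled, -0.29. Asl, the enzyme that follows Ass1, was the one called higher in both (0.38 and 0.40), in 6 and 11 of 24 other settings. No arginine gene was called with VHH-OD-Fc against Ctrl-Fc or with VHH-OD-PD-1-Fc against VHH-PD-1-Fc.

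**Figure D3:**
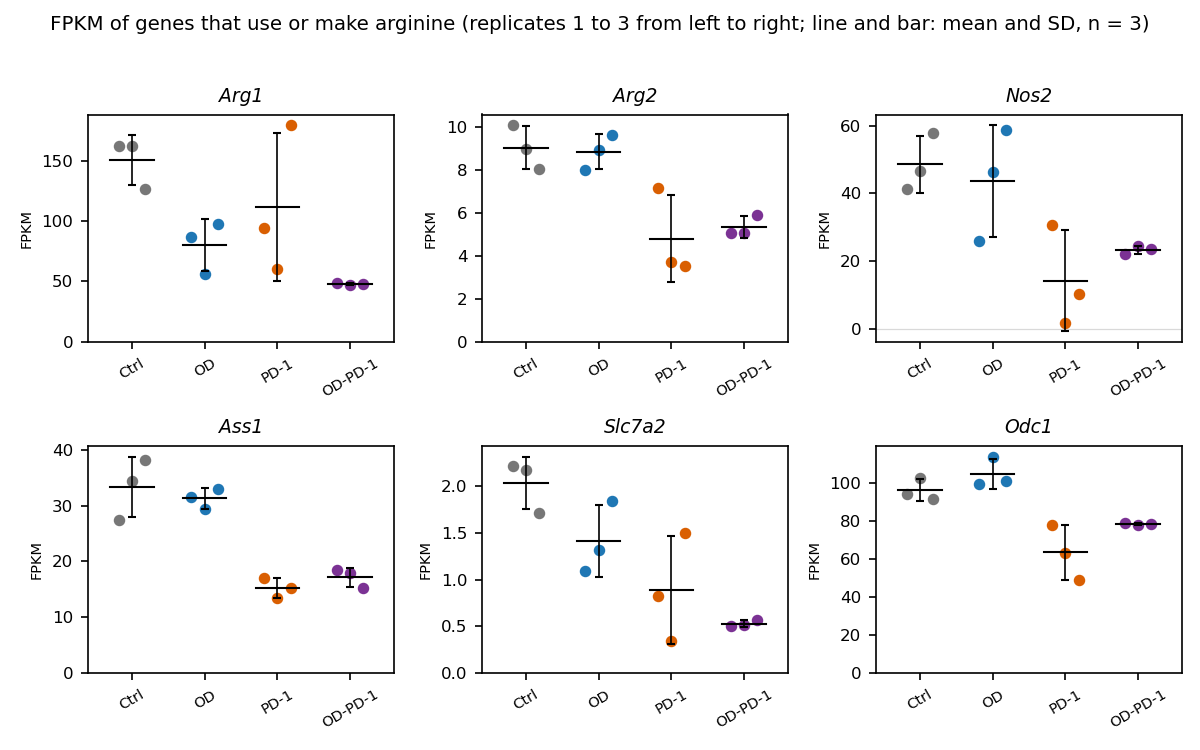
FPKM of Arg1 and 5 other genes of arginine use (y axis, linear) in each library by group (x axis, abbreviated as in the plot of the 10 genes); points are libraries, lines are means and bars are SD (n = 3). Arg1 is lower in all 3 VHH-OD-Fc libraries than in Ctrl-Fc, while Arg2, Nos2 and Ass1 overlap between those groups and are lower than in Ctrl-Fc in each library with the PD-1 arm.

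Mrc1 encodes the mannose receptor CD206, which takes up glycoproteins with exposed mannose and is among the most used surface markers of the alternative state. It had 20.3, 5.81 and 5.16 FPKM in Ctrl-Fc, 11.1, 13.3 and 5.48 in VHH-OD-Fc, 4.08, 9.94 and 7.82 with VHH-PD-1-Fc, and 3.69, 3.67 and 4.02 in VHH-OD-PD-1-Fc. Those given VHH-OD-PD-1-Fc held the 3 lowest values of the study, and replicate 1 of Ctrl-Fc the highest. With VHH-OD-PD-1-Fc the mean was 36.4% of the Ctrl-Fc mean, but the difference of -1.01 (SE 0.46, 95% interval -2.01 to -0.01) was not called (adjusted p = 0.096, limma). Without replicate 1 of Ctrl-Fc it was -0.43. With VHH-OD-Fc the difference from Ctrl-Fc was 0.11 (SE 0.46), and with VHH-PD-1-Fc it was -0.29. VHH-OD-PD-1-Fc against VHH-OD-Fc gave -1.11 (adjusted p = 0.073), and the call was made without replicate 1 of Ctrl-Fc (adjusted p = 0.018) or replicate 3 of VHH-OD-Fc (-1.45, adjusted p = 0.045).

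Msr1, the class A scavenger receptor that takes up modified lipoproteins, was also highest in replicate 1 of Ctrl-Fc, whose libraries had 35.2, 19.4 and 17.2 FPKM. The others had 17.8, 16.1 and 17.8 FPKM in VHH-OD-Fc, 10.8, 14.0 and 18.2 with VHH-PD-1-Fc, and 15.2, 14.8 and 15.5 in VHH-OD-PD-1-Fc. Each VHH-OD-PD-1-Fc library was under every Ctrl-Fc library, whereas VHH-PD-1-Fc overlapped Ctrl-Fc. Msr1 was called lower with VHH-PD-1-Fc (-0.66, SE 0.23, 95% interval -1.17 to -0.15, adjusted p = 0.038, limma), at 59.9% of the Ctrl-Fc mean. It was the only one of the 7 called there, where 32.3% of all genes tested were called lower and 46.9% in either direction. The call was made in 7 of 24 other settings. Without replicate 1 of Ctrl-Fc, Msr1 differed by -0.36 and without replicate 1 of VHH-PD-1-Fc by -0.48 (adjusted p = 0.12 each), and with a trend on transcript length removed by -0.37 (adjusted p = 0.22). Leaving out replicate 2 of VHH-PD-1-Fc, replicate 1 or 3 of VHH-OD-Fc or any library of VHH-OD-PD-1-Fc kept -0.66 but raised the adjusted p to between 0.051 and 0.076. For VHH-OD-PD-1-Fc against Ctrl-Fc the difference was -0.56 (adjusted p = 0.077), and without replicate 3 of Ctrl-Fc it was -0.75 and called (adjusted p = 0.036).

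Stab1, or stabilin-1, clears altered self proteins and is carried by macrophages and by some endothelium. Stab1 had 23.0, 17.0 and 16.8 FPKM in Ctrl-Fc, 18, 18.4 and 16.8 in VHH-OD-Fc, 13.5, 27.8 and 13.1 with VHH-PD-1-Fc, and 14.4, 13.9 and 13.6 in VHH-OD-PD-1-Fc. The 3 VHH-OD-PD-1-Fc libraries lay under all libraries of Ctrl-Fc and VHH-OD-Fc, and replicate 2 of VHH-PD-1-Fc was the highest of the 12. Stab1 was not called with VHH-OD-PD-1-Fc against Ctrl-Fc (-0.40, SE 0.23, adjusted p = 0.178, limma). It was called without replicate 2 of VHH-PD-1-Fc, at the same size (-0.40, adjusted p = 0.013), and its difference shrank to -0.06 with the length trend removed. Without that library, Stab1 was also called lower with VHH-PD-1-Fc against Ctrl-Fc (-0.46, adjusted p = 0.014, from -0.13 with it). Blood endothelium markers were also lower: 5 of 7 tested were called lower with VHH-OD-PD-1-Fc against Ctrl-Fc (all genes: 27.1%) and 5 of 7 against VHH-OD-Fc (all genes: 24.5%). Their summed FPKM was 34.5 to 47.6 in Ctrl-Fc, 38.7 to 52.7 in VHH-OD-Fc, 22.8 to 29.4 in VHH-PD-1-Fc and 26.0 to 26.8 in VHH-OD-PD-1-Fc, with no marker at 0, and their part in the Stab1 values was not tested.

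With VHH-OD-PD-1-Fc against Ctrl-Fc, 5 of the 7 tested genes had libraries that did not overlap (Arg1, Mrc1, Msr1, Stab1 and Lyve1), each lower in VHH-OD-PD-1-Fc. Of all genes tested, 41.4% lay apart and lower in that comparison, and 64.4% lay apart in either direction. The median difference of the 7 genes was -0.48, beside -0.14 over all genes. With VHH-PD-1-Fc it was also -0.48, beside -0.19, and with VHH-OD-Fc it was 0.11, beside -0.02. The comparisons share the Ctrl-Fc libraries. Against VHH-PD-1-Fc, Arg1, Chil3 and Mrc1 lay apart and lower in VHH-OD-PD-1-Fc, in a comparison in which 7.25% of all genes did. Against VHH-OD-Fc, the same 5 genes as against Ctrl-Fc lay apart and lower in VHH-OD-PD-1-Fc, where 40.4% of all genes did. With VHH-PD-1-Fc, Il10 alone lay apart from Ctrl-Fc and Lyve1 alone lay apart from VHH-OD-Fc, both lower, beside 33.7% and 31.6% of all genes.

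Cd163, the haemoglobin and haptoglobin receptor of macrophages, was low in these tumours. It had 0.595, 0.604 and 0.476 FPKM in Ctrl-Fc, 0.798, 2.52 and 0.487 in VHH-OD-Fc, 0.012, 1.84 and 0.145 with VHH-PD-1-Fc, and 0.340, 0.389 and 0.340 in VHH-OD-PD-1-Fc. Only 2 libraries reached an FPKM of 1, namely replicate 2 of VHH-OD-Fc and replicate 2 of VHH-PD-1-Fc. Each library of VHH-OD-PD-1-Fc was under those of Ctrl-Fc, and the other groups overlapped Ctrl-Fc. VHH-PD-1-Fc alone spanned most of the range seen in the study.

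Folr2, the beta folate receptor, and Lyve1, a hyaluronan receptor, mark macrophages that reside in tissue, and Lyve1 is also carried by lymphatic endothelium. Folr2 had 1.59, 0.419 and 0.308 FPKM in Ctrl-Fc, 0.811, 0.989 and 0.350 in VHH-OD-Fc, 0.198, 0.949 and 0.188 with VHH-PD-1-Fc, and 0.240, 0.337 and 0.332 in VHH-OD-PD-1-Fc. Every group overlapped Ctrl-Fc, and replicate 1 of Ctrl-Fc was the sole library above 1 FPKM. Lyve1 had 1.41, 1.02 and 0.993 FPKM in Ctrl-Fc, 1.22, 3.78 and 1.24 in VHH-OD-Fc, 0.180, 1.06 and 0.477 with VHH-PD-1-Fc, and 0.692, 0.713 and 0.244 in VHH-OD-PD-1-Fc. All libraries with the PD-1 arm lay under all VHH-OD-Fc libraries, with replicate 2 of VHH-OD-Fc far above the rest.

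Against VHH-OD-Fc, Lyve1 fell by 0.91 on the log2 scale both with VHH-PD-1-Fc (SE 0.30, adjusted p = 0.031, limma) and with VHH-OD-PD-1-Fc (SE 0.30, adjusted p = 0.033). These were the only calls of Lyve1. With VHH-PD-1-Fc against VHH-OD-Fc, 2 of the 7 genes were called, both lower, beside 28.4% of all genes called lower and 42.6% in either direction. With VHH-OD-PD-1-Fc against VHH-OD-Fc, 1 of the 7 was called, beside 24.5% lower and 39.9% in either direction. Neither call was made without replicate 2 of VHH-OD-Fc, where both differences were -0.54 (adjusted p of 0.10 and 0.11). The VHH-PD-1-Fc call was also lost without replicate 1 (-0.72) or 3 (-0.88) of that group, and the VHH-OD-PD-1-Fc call without replicate 1 (-0.98), 2 (-0.99) or 3 (-0.76) of its own. Against Ctrl-Fc, Lyve1 was not called in any group (0.43 with VHH-OD-Fc, -0.48 with each of the others, lowest adjusted p = 0.207). Markers of lymphatic endothelium were also called lower in part, and the sum of 6 such genes was 25.1 to 50.8 FPKM in Ctrl-Fc, 15.2 to 44.5 in VHH-OD-Fc, 6.1 to 15.2 in VHH-PD-1-Fc and 16.6 to 18.4 in VHH-OD-PD-1-Fc. Most of each sum came from Pdpn and Ccl21a, and Pdpn alone was 13.9 to 15.4 FPKM in VHH-OD-PD-1-Fc. Of the 3 markers tested, 2 were called lower with VHH-PD-1-Fc and 1 with VHH-OD-PD-1-Fc against VHH-OD-Fc. Prox1, the defining lymphatic factor, was between 0.0082 and 0.168 FPKM in all libraries, and Ccl21a was at 0 in replicate 3 of VHH-PD-1-Fc. The part of lymphatic vessels in the Lyve1 result was not tested.

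Il10 encodes the cytokine interleukin-10, which restrains inflammatory gene expression through Stat3. Its Ctrl-Fc libraries were nearly equal, at 2.60, 2.71 and 2.68 FPKM. Those of VHH-OD-Fc were spread around them, at 4.27, 6.72 and 1.92 FPKM. VHH-PD-1-Fc gave 1.84, 0.175 and 2.22 FPKM and VHH-OD-PD-1-Fc gave 2.09, 3.27 and 1.99 FPKM. Replicate 2 of VHH-PD-1-Fc was the lowest of the study, at 10 steps, against 110 to 457 steps in the other 11 libraries. All VHH-PD-1-Fc libraries were under those of Ctrl-Fc, and the difference of -0.73 (SE 0.39) was not called (adjusted p = 0.142, limma). Il10 was called lower with VHH-PD-1-Fc than with VHH-OD-Fc (-1.16, SE 0.39, 95% interval -2.01 to -0.30, adjusted p = 0.034), although 1 library of each group overlapped the other. The call was lost without that low library (-0.70, adjusted p = 0.11) and also without replicate 1 or 2 of VHH-OD-Fc (adjusted p of 0.085 and 0.13).

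Chil3, or Ym1, is a chitinase-like protein secreted by rodent macrophages and also stored by neutrophils. It had 0.996, 4.55 and 2.26 FPKM in Ctrl-Fc, 1.07, 10.6 and 2.2 in VHH-OD-Fc, 3.18, 7.49 and 11.3 with VHH-PD-1-Fc, and 2.92, 2.59 and 2.99 in VHH-OD-PD-1-Fc. High and low libraries occurred within both groups without the PD-1 arm, and all groups overlapped Ctrl-Fc. The VHH-PD-1-Fc libraries had the highest mean, 281% of that of Ctrl-Fc, and the difference of 1.20 (SE 0.59, 95% interval -0.10 to 2.5) was not called (adjusted p = 0.116, limma). It was called without replicate 2 of VHH-OD-Fc, which enters through the shared estimate of the spread (adjusted p = 0.04), and without that library Chil3 was also called higher with VHH-PD-1-Fc than with VHH-OD-Fc (1.56, adjusted p = 0.027). VHH-OD-PD-1-Fc lay under VHH-PD-1-Fc in every library (-0.99, SE 0.59, adjusted p = 0.461). Reads of Chil3 and of its close paralog Chil4, which is not analysed here, could be split between these genes in counting, so its values are uncertain.

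Retnla encodes RELM-alpha, a resistin-like protein that macrophages and fat tissue secrete after IL-4. It was the least abundant of the 10 genes. It was listed at 0 in replicate 2 of Ctrl-Fc and in replicates 1 and 3 of VHH-PD-1-Fc. There 0 steps allow an FPKM of up to 0.098, 0.11 and 0.097 (3 steps each, counting error only). These limits take steps as independent and are higher if a step is 1 read of a pair. Where Retnla was above 0, Ctrl-Fc had 0.562 and 0.0663 FPKM, VHH-OD-Fc had 0.887, 2.52 and 0.0822, VHH-PD-1-Fc had 0.153, and VHH-OD-PD-1-Fc had 0.206, 0.267 and 0.066. Replicate 2 of VHH-OD-Fc held 78 steps and no other library held more than 25. All groups overlapped. Adipocyte markers also reached their highest sum in that library. They summed to 28.3 to 98.4 FPKM in VHH-OD-Fc, 14.7 to 40 in Ctrl-Fc, 2.56 to 15.8 in VHH-PD-1-Fc and 8.8 to 10.3 in VHH-OD-PD-1-Fc (Lep at 0 in 1 library), and their part in the Retnla values was not tested.

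**Figure D4:**
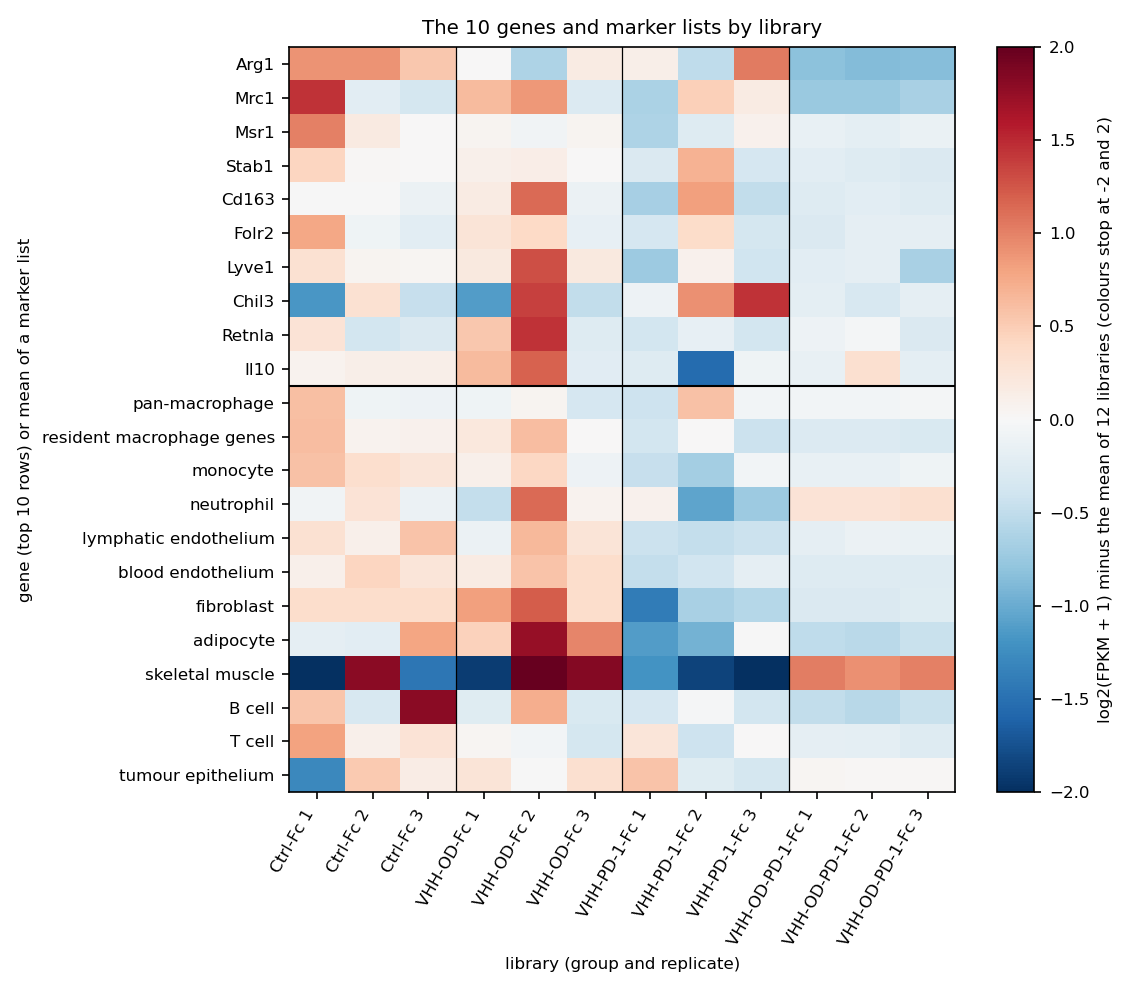
Log2(FPKM + 1) of each of the 10 genes, and mean log2 of each marker list, minus its mean over the 12 libraries (colour, red above and blue below) by library (x axis). The 10 genes (top rows) are not high in the same libraries: 4 peak in replicate 2 of VHH-OD-Fc, 3 in replicate 1 of Ctrl-Fc, 2 in replicate 3 of VHH-PD-1-Fc and 1 in replicate 2 of VHH-PD-1-Fc.

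The 10 genes thus had their highest values in 4 different libraries, none of them of VHH-OD-PD-1-Fc. Cd163, Lyve1, Retnla and Il10 were highest in replicate 2 of VHH-OD-Fc, a library whose skeletal muscle markers summed to 2062 FPKM and whose adipocyte markers summed to 98.4 FPKM, the most in the study. Mrc1, Folr2 and Msr1 were highest in replicate 1 of Ctrl-Fc, in which general macrophage markers reached their Ctrl-Fc maximum of 1779 FPKM. That library also had the highest sum of T cell markers, 26.7 FPKM. Its tumour epithelium markers had the lowest sum, 1184 FPKM against 1947 to 3700 in the others. Stab1 was highest in replicate 2 of VHH-PD-1-Fc, which had the highest sum of macrophage markers (2628 FPKM, of which Lyz2 alone was 1734). By the mean log2 of the same markers, replicate 1 of Ctrl-Fc was higher, at 5.46 against 5.43. Arg1 and Chil3 were highest in replicate 3 of VHH-PD-1-Fc. Within groups, the median SD of the 7 tested genes on the log2 scale was 0.243 in Ctrl-Fc, 0.60 in VHH-OD-Fc, 0.583 in VHH-PD-1-Fc and 0.059 in VHH-OD-PD-1-Fc, beside 0.14, 0.123, 0.247 and 0.0747 over all genes tested. The part of tissue makeup in this spread was not tested.

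Without replicate 1 of Ctrl-Fc, replicate 2 of VHH-OD-Fc and replicate 2 of VHH-PD-1-Fc, a set chosen after the data were seen, Arg1 was still called with VHH-OD-PD-1-Fc against Ctrl-Fc (-1.57, adjusted p = 0.0018, limma), and Stab1 joined it (-0.26, adjusted p = 0.022). Arg1 was then also called against VHH-PD-1-Fc (-1.43, adjusted p = 0.023). The Msr1 call with VHH-PD-1-Fc was lost (-0.35, adjusted p = 0.19), and Lyve1 (-0.60, adjusted p = 0.049) and Stab1 (-0.32, adjusted p = 0.017) were called lower instead. Il10 was no longer called between VHH-PD-1-Fc and VHH-OD-Fc (-0.38, adjusted p = 0.31).

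The scale of the values bears on each comparison across the sets. Over all genes, the median difference from Ctrl-Fc was -0.19 with VHH-PD-1-Fc. It was -0.43 after rescaling to TPM and -0.01 after median-of-ratios scaling. For VHH-PD-1-Fc against Ctrl-Fc, 2092 genes were called higher and 4615 lower, against 1346 and 6800 with TPM and 3145 and 2879 with median-of-ratios scaling. For VHH-OD-PD-1-Fc against Ctrl-Fc, 2158 were higher and 3878 lower, against 1415 and 6192 with TPM and 3007 and 2593 with median-of-ratios scaling. Against VHH-OD-Fc, VHH-OD-PD-1-Fc had 2209 higher and 3503 lower, against 1369 and 5616 with TPM and 2889 and 2536 with median-of-ratios scaling. VHH-PD-1-Fc had 2025 and 4070 there, against 1307 and 6363 with TPM and 2971 and 2750 with median-of-ratios scaling. For VHH-OD-PD-1-Fc against VHH-PD-1-Fc the split of 77 higher and 43 lower became 57 and 54 with median-of-ratios scaling. The Arg1 difference between VHH-OD-PD-1-Fc and Ctrl-Fc was -1.87 with TPM and -1.46 with median-of-ratios scaling, and it was called on both.

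Upstream of these genes, both ligands were low. Il4 had 2.15 ± 0.385 FPKM in Ctrl-Fc and 1.33 ± 0.231 in VHH-OD-PD-1-Fc (SD, n = 3), and Il13 was at or under 0.214 FPKM in each library. The receptor chain Il4ra had 32.7 FPKM in Ctrl-Fc and 25.5 in VHH-OD-PD-1-Fc, and Stat6 had 47.7 and 37.6. All 3 tested genes were called lower with VHH-OD-PD-1-Fc than in Ctrl-Fc by limma, with differences of -0.43 for Il4 (adjusted p = 0.034), -0.34 for Il4ra (adjusted p = 0.039) and -0.34 for Stat6 (adjusted p = 0.025). These calls were made in 14 of 23 other settings for Il4, 12 of 24 for Il4ra and 15 of 24 for Stat6. With median-of-ratios scaling none of them was made (adjusted p of 0.091, 0.22 and 0.25), nor without replicate 1 of Ctrl-Fc (0.11, 0.11 and 0.079). With VHH-PD-1-Fc, Il4 and Stat6 were called lower (-0.39 and -0.43, in 6 of 23 and 21 of 24 other settings) and Il4ra was not (-0.20).

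Of 26 genes listed for the IL-4 and IL-13 pathway, 21 were tested. With VHH-OD-PD-1-Fc against Ctrl-Fc, 12 were called lower and 0 higher, with a median of -0.46, beside 27.1% of all genes called lower and an all-gene median of -0.14. On TPM 15 were lower and 0 higher, and on median-of-ratios scaling 6 and 0. The kinases Jak3 (-0.80) and Tyk2 (-0.64), the histone demethylase Kdm6b (-0.45) and the PD-1 ligand gene Pdcd1lg2 (-1.02) were among them, and each was called on both scalings. With VHH-PD-1-Fc, 9 were called lower and 1 higher, again with a median of -0.46 (all genes: 32.3% lower, median -0.19), against 15 and 1 on TPM and 5 and 1 on median-of-ratios scaling. The lower genes included the transcription factor Egr2 (-1.20) and the feedback inhibitor Socs1 (-1.22), both called on each scaling. The higher gene was Ccl24, an eosinophil-attracting chemokine of alternatively activated macrophages, at 1.60 (adjusted p = 0.015), named after its value was seen. It was not called without replicate 3 of Ctrl-Fc (1.37) or replicate 2 (1.37) or 3 (1.14) of VHH-PD-1-Fc. No gene of the list was called with VHH-OD-Fc against Ctrl-Fc (median -0.12) or with VHH-OD-PD-1-Fc against VHH-PD-1-Fc (median 0.02).

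Around Il10, 9 of 10 listed genes of its receptor and signalling were tested. With VHH-PD-1-Fc against Ctrl-Fc, 5 were called lower and 0 higher (median -0.68), beside 32.3% of all genes called lower and an all-gene median of -0.19. The counts were 9 and 0 on TPM and 4 and 0 on median-of-ratios scaling. They were the target genes Socs3 (-1.19), Bcl3 (-0.68) and Etv3 (-0.78), which stayed called on both scalings, the interleukin-1 receptor antagonist Il1rn (-1.03) and the receptor chain Il10ra (-0.86). Without replicate 1 of Ctrl-Fc, neither Il1rn (-0.68) nor Il10ra (-0.59) was called, nor was Il1rn without replicate 2 of VHH-PD-1-Fc (-0.78) or Il10ra without its replicate 1 (-0.74) or 3 (-0.70). With VHH-OD-PD-1-Fc, 3 were called lower (median -0.47): Etv3 (-0.77), Tyk2 (-0.64) and Jak1 (-0.38), the last in 10 of 24 other settings, beside 27.1% of all genes. Tyk2 and Jak1 are also in the IL-4 and IL-13 list and count among its lower genes, so these lists are not separate. On TPM 8 of the IL-10 list were lower, and on median-of-ratios scaling 2. The list had 0 calls with VHH-OD-Fc against Ctrl-Fc.

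Among other scavenger and lectin receptors, 6 of 12 were tested. With VHH-OD-PD-1-Fc against Ctrl-Fc, 27.1% of all genes tested were called lower. Of the 6, 3 were called lower and 0 higher: Clec7a, the receptor Dectin-1 for fungal glucans (-1.02), the collagen receptor Mrc2 (-0.52) and the collectin Colec12 (-0.50). These were called in 23, 18 and 15 of 24 other settings, and only Clec7a on median-of-ratios scaling. With VHH-PD-1-Fc, those 3 and the fatty acid receptor Cd36 (-1.48) were called lower, in 13 of 24 other settings for Clec7a, 23 of 24 for Mrc2, 18 of 24 for Colec12 and 22 of 23 for Cd36. Clec7a was then lost without replicate 1 of Ctrl-Fc (-0.43) or replicate 1 (-0.59) or 2 (-0.75) of VHH-PD-1-Fc. Cd36 is also carried by adipocytes and endothelium, and Mrc2 by fibroblasts. In the same comparison, 32.3% of all genes tested were called lower. Among markers, 6 of 7 of fibroblasts were called lower (sums of 216 to 451 FPKM against 572 to 797 in Ctrl-Fc). So were 5 of 7 of blood endothelium and 1 of 4 of adipocytes. The part of these cell types in the Cd36 and Mrc2 results was not tested. Scara3 was called higher with VHH-PD-1-Fc (0.94, named after its value was seen), in 5 of 24 other settings.

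Among 11 tested genes of resident macrophages, 2 were called lower with VHH-OD-PD-1-Fc, F13a1 (-1.07, in 23 of 24 other settings) and Selenop (-1.80, in 16 of 24). Selenop was not called without replicate 1 (-1.38) or 3 (-1.95) of Ctrl-Fc or any one library of VHH-OD-PD-1-Fc. Another 2 were called lower with VHH-PD-1-Fc, Ccl8 (-2.2) and Hmox1 (-2.03), in 24 of 24 other settings each. Both counts are below the shares of all genes called lower in those comparisons, 27.1% and 32.3%, so the counts say nothing particular about the list. The median difference of the 11 genes was -0.63 with VHH-OD-PD-1-Fc and -0.54 with VHH-PD-1-Fc, beside -0.14 and -0.19 over all genes. F13a1, the transglutaminase of clotting that macrophages make, was also lower with VHH-OD-PD-1-Fc than with VHH-PD-1-Fc (-1.40, adjusted p = 0.017, limma), the sole call of the pathway lists in that comparison. That call was lost without any one of the VHH-OD-PD-1-Fc libraries at differences of -1.37, -1.43 and -1.40 (adjusted p of 0.091, 0.094 and 0.099).

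A list of 7 genes around macrophage growth factors held Csf1 and Il34, both ligands of the receptor Csf1r. It also held genes of GM-CSF, a separate cytokine. Csf1 itself was not called against Ctrl-Fc with VHH-OD-PD-1-Fc (-0.15, adjusted p = 0.685) or with VHH-PD-1-Fc (-0.60, adjusted p = 0.092). The GM-CSF receptor chains Csf2ra (-0.88) and Csf2rb (-0.48, a chain shared with the receptors of other cytokines) were called lower with VHH-OD-PD-1-Fc and Il34 (0.37) higher, in 17, 11 and 11 of 24 other settings. These were 2 of 7 lower and 1 higher, beside 27.1% and 15.1% of all genes tested. On median-of-ratios scaling neither receptor gene was called, and on TPM Il34 was not. Against Ctrl-Fc, VHH-PD-1-Fc had Csf2ra lower (-1.34, in 24 of 24) and Il34 higher (0.55, in 22 of 24). That was 1 of 7 in each direction, beside 32.3% of all genes lower and 14.6% higher. Of 8 relatives of Chil3 and Retnla, 3 were tested. Retnlg, a relative of Retnla made by neutrophils, rose with VHH-OD-PD-1-Fc from 42.6 ± 15.6 to 190 ± 7.54 FPKM (SD, n = 3).

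The genes whose log2 values ran most like those of each tested gene over the 12 libraries are given as a description, since the libraries share groups and tissue makeup. For Arg1 they were Chtop, Fam20c and Star, with Pearson's r of 0.90 to 0.91, and 0.71 to 0.79 for deviations from the group means. Msr1 ran with Rab28 (r = 0.95), Clec7a (0.94) and Gmip (0.94). Mrc1 ran with Ntng2, Sesn1 and Klhl33 (0.94 each), and Stab1 with Nucb1, Vsir and Ghr (0.93 to 0.94). Lyve1 ran with Gas6 (0.93), Cacnb1 and Ldb2 (0.92 each). For Il10 the nearest genes were Mrps9 (0.93) and the early response genes Zfp36 (0.91) and Egr1 (0.90). Chil3 ran with Myl6b (0.89) and Tmem88 (0.85). None of the nearest genes of any of the 7 was another of the 10.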

How the data were processed

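RNA-seq of 12 mouse tumour libraries was measured. RNA was selected by poly(A) and read as pairs of 150 bases, per the labels' protocols. Per the submitters' processing notes, tools included fastp 0.22.0 and HISAT2 2.2.1. The build named there is a human assembly although the table holds mouse symbols, so no coordinates are given. For the counting tool, the annotation and the use of strand, nothing is given in the sources used here. The authors deposited FPKM values, 41009 rows by 12 libraries.

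Low values of 18382 genes with 1 transcript (lengths from GENCODE M21) lay within 0.05 of whole multiples of 1 step in 95.8% to 96.6% of cases per library, and 59.0% to 61.9% of these multiples were even. If a step is 1 read of a pair, depth was 21900000 to 30600000 fragments. Counts were not recovered for genes with several transcripts, so no count model was used.

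Groups came from the treatment labels. Group differences come from limma 3.58.1 under R 4.3.3 (1 fit of 12 libraries, mean per group, variance trend, 8 residual degrees of freedom) on log2(FPKM + 1), for genes with FPKM of at least 1 in at least 3 libraries, two-sided, with calls at an adjusted p (Benjamini-Hochberg) under 0.05. The method was tested on simulated data. Alternatives covered pseudocount, filter, scaling, weights, length, block and libraries left out. The members, lists, tests and alternatives were chosen with earlier results of these data known. Named list genes were the up to 4 of smallest p in a comparison, plus ligands, receptors and enzymes of the members, plus the 3 genes of highest r per member. One gene of that last kind is not reported here. Lists of other cell types served as markers.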

Additional observations from a re-analysis of the deposited data

How the results depend on the processing

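Counts of called genes among the 7 were small, so single genes near the threshold moved them. VHH-OD-PD-1-Fc against Ctrl-Fc had 1, with 4 under TPM, 2 under library weights, 2 with only the groups compared, 0 with its VHH-OD-PD-1-Fc libraries as 1 sample, 2 without the 3 libraries named above, and 1 to 2 when any library was left out. VHH-PD-1-Fc against Ctrl-Fc had 1, and 0 with no filter, median of ratios, quantile normalization, library weights, only the groups compared, the VHH-OD-PD-1-Fc libraries as 1 sample or the length trend removed, 2 without the 3 libraries, and 0 to 2 with any library left out. VHH-OD-PD-1-Fc against VHH-OD-Fc had 1, with 3 under TPM, 4 under weights, 5 with only the groups compared, 4 without the 3 libraries, 0 with a mean FPKM of at least 5, no filter, quantile normalization, 1 sample or the length trend removed, and 0 to 3 with any library left out. VHH-PD-1-Fc against VHH-OD-Fc had 2, with 1 under median of ratios or the length trend removed, 0 with a mean FPKM of at least 5, no filter, quantile normalization, weights, only the groups compared or 1 sample, 3 without the 3 libraries (Chil3 higher, Lyve1 and Stab1 lower), and 1 to 2 with any library left out. VHH-OD-PD-1-Fc against VHH-PD-1-Fc had 0, with 1 without the 3 libraries and 0 to 1 with any library left out. Shares over all genes moved too: for VHH-OD-PD-1-Fc against VHH-OD-Fc 39.9% were called, with 48.8% under TPM, 60.9% under weights, 56.1% with only the groups compared and 7.57% as 1 sample, and against Ctrl-Fc 42.2%, with 53.2%, 69.2%, 53.0% and 9.17%. The cause was not tested. No called difference of the 7 genes changed its sign.

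Replicate numbers did not pair the libraries: deviations of same-numbered libraries correlated at -0.15 to 0.18. With the replicate block, the count was 0 for VHH-PD-1-Fc against Ctrl-Fc (Msr1, adjusted p = 0.058, limma) and 1 for VHH-PD-1-Fc against VHH-OD-Fc, and the other comparisons kept their counts.

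With 3 libraries a group, intervals of most of the 7 genes are wide enough to hold differences of 1 on the log2 scale. In Cd163, Retnla and Folr2, tested with no filter, the adjusted p was at least 0.12 in every comparison.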
